A study of Mus musculus with 12 samples.

Results

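Most of the AP-1 genes that could be measured in mouse splenic dendritic cells stood lower after 2 h of culture than at isolation. Jun, Fosb and Fos fell in each of 3 sorted subsets, Jund and 1 probe set of Atf3 fell in the mean over the subsets, and Junb did not pass the test. The genes examined were Fos, Fosb, Fosl2, Jun, Junb, Jund, Atf3 and Maff, which are 8 of the 8251 genes that the array's annotation names by 1 symbol. Every probe set whose single symbol was one of these was taken, which gave 12 probe sets. Fos and Junb had 2 each, Atf3 had 3, and the others had 1 each.

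RNA was from spleen cells sorted for high CD11c, an integrin of dendritic cells, and divided by CD4 and CD8 into CD4+ cells, CD8+ cells and double-negative (DN) cells that lacked both. The 6 groups were cultured CD4+, cultured CD8+ and cultured DN cells, which had spent 2 h in tissue culture medium at 37 °C, and fresh CD4+, fresh CD8+ and fresh DN cells, which were not cultured. Each group had 2 arrays, replicates 1 and 2, numbered by experiment in the labels. The labels used here give no strain, genotype, age or pooling of animals, and name no stimulus other than the culture. They also do not say whether replicates were separate animals, so the p-values cover only the spread between these samples, technical or not.

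AP-1 is a dimer of basic leucine zipper proteins that binds DNA and drives transcription after growth factors, cytokines, stress or the handling of cells. FOS proteins bind DNA mainly as partners of a JUN protein, whereas JUN proteins can also pair with themselves. ATF3 and the small MAF proteins join the same network. Fos, Fosb, Jun, Junb and Atf3 are classical immediate-early genes, whose transcripts appear quickly without new protein synthesis and decay quickly. In dendritic cells, dimers of BATF and JUN proteins are known for binding DNA together with IRF4 or IRF8.

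The arrays were comparable in most respects but not all. Cultured CD4+ replicate 1 had the highest noise, 107.9 against 26.2 to 82.5 elsewhere, taking noise as the root mean square of the negative values. The Gapdh control ratio, 3' over 5', is higher where RNA is degraded or incompletely copied. It was 1.97 on that array, 2.55 on replicate 1 of fresh CD8+ cells and 1.34 on replicate 1 of cultured DN cells. On the other 9 it was at most 1.04. The same ratio for actin did not single out these arrays, at 1.16, 0.908 and 0.919 in that order. Its highest value, 1.28, was on replicate 2 of cultured CD4+ cells. Itgax, which encodes CD11c, was above the detection floor on all 12 arrays, at 874.5 to 2374 in cultured and 1450 to 3210 in fresh arrays, and lower in the cultured array of 6 of 6 pairs. All 7 dendritic cell markers were above the floor on at least 2 arrays, and their sums separated the states, at 64420 to 94530 (cultured) and 26250 to 47110 (fresh). Markers of CD8+ dendritic cells summed to 15200 and 14920 in cultured and 22700 and 17730 in fresh CD8+ cells. In the other subsets they summed to 6076 to 9574 (cultured) and 2810 to 5081 (fresh). Markers of CD8-negative ones summed to 2468 and 1956 in cultured and 1561 and 1746 in fresh CD8+ cells. In the other subsets these summed to 5127 to 6164 (cultured) and 9382 to 12190 (fresh). Cd8a was 891 and 679 in cultured and 1210 and 1675 in fresh CD8+ cells, and Cd4 was 271 and 112 in cultured and 617 and 613 in fresh CD4+ cells. Replicate 1 of fresh CD8+ cells is called CD4 positive in 1 label and CD8+ in its title and source, and its Cd8a of 1210 and Cd4 of 92.0 went with the title. Of 7 T cell markers on the array, 6 were never above the floor and the summed level was 46.6 to 275 in cultured and 50.8 to 218 in fresh arrays. Of 8 B cell markers, 6 passed the floor on at least 2 arrays, among them Cd79a and Cd79b, and the sums were 755.5 to 1684 (cultured) and 712 to 1462 (fresh). Of 8 macrophage or monocyte markers 6 passed, with sums of 1980 to 4112 (cultured) and 2098 to 4183 (fresh). Neutrophil markers summed to 438.5 to 1402 (cultured) and 264 to 760 (fresh), with S100a9, Ltf, Ngp and Mpo never above the floor. For NK cell markers the sums were 163 to 425 (cultured) and 42.5 to 245 (fresh), with Ncr1, Prf1 and Gzmb never above it. The sums were 382 to 852 (cultured) and 347 to 874 (fresh) for 3 plasmacytoid dendritic cell markers, 165 to 2512 and 165 to 830 for 3 red cell markers, 28.0 to 273 and 24.1 to 169 for 2 platelet markers, and 74.2 to 196 and 84.6 to 227 for 5 stromal markers. The part of these marker differences in the AP-1 results was not tested. In sorted populations, fewer cells making a transcript and less of it per cell cannot be told apart.

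The promoters of the genes that fell are shown because immediate-early genes are read out through short elements close to their start. Each window runs from 250 bases before the annotated start to 50 bases after it, 5′ to 3′ on the gene's strand, from RefSeq on GRCm38.p6. Capitals mark matches, on either strand, of TGACG, the core of the cyclic AMP response element bound by ATF and CREB proteins, and of TGACNTCA, a site that JUN-ATF dimers can bind. The first 5 windows belong to genes that were called lower in culture, and that of Junb, which was not called, is given for comparison. Their positions are chr12:85473640-85473939 (Fos, plus strand), chr7:19309996-19310295 (Fosb, minus), chr4:95052173-95052472 (Jun, minus), chr1:191183284-191183583 (Atf3, minus), chr8:70697489-70697788 (Jund, plus) and chr8:84978699-84978998 (Junb, minus).
Fos: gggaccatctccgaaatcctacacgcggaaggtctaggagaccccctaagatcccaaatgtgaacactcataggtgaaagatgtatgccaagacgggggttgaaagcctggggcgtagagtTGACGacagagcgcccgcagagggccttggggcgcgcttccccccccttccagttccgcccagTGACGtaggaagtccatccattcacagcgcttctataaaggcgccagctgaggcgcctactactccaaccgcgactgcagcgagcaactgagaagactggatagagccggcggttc
Fosb: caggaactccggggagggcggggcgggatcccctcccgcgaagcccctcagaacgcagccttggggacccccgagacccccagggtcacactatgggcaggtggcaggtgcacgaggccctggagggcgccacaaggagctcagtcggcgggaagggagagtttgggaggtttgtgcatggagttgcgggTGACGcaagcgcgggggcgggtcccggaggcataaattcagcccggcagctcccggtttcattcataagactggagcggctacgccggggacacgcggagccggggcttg
Jun: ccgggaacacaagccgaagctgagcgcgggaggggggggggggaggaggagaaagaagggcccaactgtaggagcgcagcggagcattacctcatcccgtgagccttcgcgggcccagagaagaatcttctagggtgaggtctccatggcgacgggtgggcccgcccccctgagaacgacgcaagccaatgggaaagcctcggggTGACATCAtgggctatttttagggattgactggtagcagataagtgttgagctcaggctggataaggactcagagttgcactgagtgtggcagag
Atf3: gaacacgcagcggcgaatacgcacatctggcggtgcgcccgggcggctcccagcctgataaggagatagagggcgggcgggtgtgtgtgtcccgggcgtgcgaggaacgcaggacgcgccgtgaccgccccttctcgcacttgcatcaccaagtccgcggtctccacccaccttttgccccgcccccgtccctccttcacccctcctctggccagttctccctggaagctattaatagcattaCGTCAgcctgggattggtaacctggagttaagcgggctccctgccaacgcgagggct
Jund: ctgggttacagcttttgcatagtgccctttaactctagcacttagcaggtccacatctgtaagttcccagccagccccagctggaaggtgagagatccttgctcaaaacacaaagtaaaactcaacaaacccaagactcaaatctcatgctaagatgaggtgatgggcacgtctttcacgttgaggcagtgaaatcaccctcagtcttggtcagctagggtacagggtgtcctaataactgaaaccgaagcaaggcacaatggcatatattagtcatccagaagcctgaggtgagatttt
Junb: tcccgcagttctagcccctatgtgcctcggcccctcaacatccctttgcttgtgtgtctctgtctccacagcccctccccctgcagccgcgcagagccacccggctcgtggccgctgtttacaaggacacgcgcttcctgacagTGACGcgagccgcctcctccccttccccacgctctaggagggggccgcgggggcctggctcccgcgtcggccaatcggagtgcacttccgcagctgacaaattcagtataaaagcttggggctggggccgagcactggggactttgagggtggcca

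TGACG was found at 129 and 66 bases before the start in Fos, 60 before it in Fosb, 7 before it in Atf3 (on the opposite strand) and 106 before it in Junb. Jun had none, and had TGACNTCA, as TGACATCA, 45 bases before its start. The Jund window held no match of any motif searched. Of all 32851 windows of this length, 20.8% held TGACG and 8.83% held TGACNTCA, and the letters TGACGTCA satisfy both. All 8 genes matched the table, with 10 windows in all because Maff had 3, and 6 of the 10 held TGACG. The AP-1 consensus TGANTCA was in none of the 10 (7.81% of all windows), and neither was the serum response factor's CArG box (1.63%). Sequence further upstream was not searched, so these absences hold for the windows only. They do not show that Fos or any other gene lacks such a site. TATAAA was in the windows of Fos and Junb (13.6%). The others searched were CCAAT, in 3 of the 10 (37.4%), and GGGCGG, in 7 (35.7%). A match describes letters in the window and is no evidence that a factor binds there.

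Intensities were compared on a generalised log2 scale that stays defined below 0, and a probe set was tested if it exceeded a detection floor of 91.4 on at least 2 of 12 arrays. Of the 12 AP-1 probe sets, 8 were tested, which stand for 6 genes, and each of the 8 was above the floor on all 12 arrays. The other 4 were 1 probe set each of Fos, Fosl2, Atf3 and Maff. A probe set was called if its adjusted p in the limma fit over all 6159 tested probe sets was under 0.05. In the mean culture effect, which averages cultured minus fresh over the 3 subsets, 5 of the 8 AP-1 probe sets were lower and 0 higher. Over all tested probe sets, 22.3% were lower and 17.0% higher in this contrast, so that 39.3% moved either way. The median log2 difference was -1.16 for the 8 and -0.02 for all tested probe sets.

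Fos, the founding member of the FOS family (probe set 160901_at), had cultured intensities of 1592 and 1260 in CD4+, 1925 and 1452 in CD8+ and 1689 and 1678 in DN cells, against fresh intensities of 4405 and 3407 in CD4+, 5874 and 4142 in CD8+ and 4429 and 4693 in DN cells. All 6 cultured arrays lay below all 6 fresh arrays, a pattern that 10.1% of all tested probe sets showed. Within a subset and experiment number, the cultured value was 32.8% to 38.1% of the fresh value over the 6 pairs, a narrower range than for any other AP-1 probe set tested. Fos fell in culture by a log2 difference of -1.48 ± 0.15 in the mean over subsets (SE; limma, adjusted p = 4.69e-05). It was lower by -1.45 ± 0.27 in CD4+ cells (adjusted p = 0.00502), -1.56 ± 0.27 in CD8+ cells (adjusted p = 0.00561) and -1.44 ± 0.27 in DN cells (adjusted p = 0.00804). In limma fits, leaving out fresh CD4+ replicate 1 ended the CD4+ call (adjusted p = 0.0588), and the CD8+ call was lost without cultured CD8+ replicate 2 (0.0601) and the DN call without cultured DN replicate 1 (0.0635) or fresh DN replicate 1 (0.0552) or 2 (0.0942). With only the CD4+ arrays fitted, the CD4+ call was also lost (0.0559). The other Fos probe set, 161716_at, ran from 26.9 to 72.4 (median 44.65) in cultured and from 17.6 to 37.9 (median 21.95) in fresh arrays. This was the opposite direction, but it was never above the floor and was not tested.

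Fosb (103990_at), whose product and its truncated splice form pair with JUN proteins, moved in the same direction. Its cultured intensities were 573 and 351 in CD4+, 556 and 285.5 in CD8+ and 490.2 and 401 in DN cells, against fresh intensities of 1266 and 1305 in CD4+, 1338 and 2114 in CD8+ and 1430 and 1512 in DN cells. Here too all 6 cultured arrays lay below all 6 fresh arrays. The mean culture effect was -1.77 ± 0.21 (limma, adjusted p = 0.000126), and 4.82% of the tested probe sets had a more negative one. Fosb fell by -1.52 ± 0.37 in CD4+ cells (adjusted p = 0.018), -2.07 ± 0.37 in CD8+ cells (adjusted p = 0.00673) and -1.73 ± 0.37 in DN cells (adjusted p = 0.0159). In limma fits without 1 array, the CD4+ call was lost without cultured CD4+ replicate 2 (adjusted p = 0.0501) or fresh CD4+ replicate 1 (0.0909) or 2 (0.113), and with only the CD4+ arrays fitted (0.0686). The CD8+ call was lost without cultured CD8+ replicate 2 (0.0656), and the DN call without cultured DN replicate 1 (0.0706) or 2 (0.0735) or fresh DN replicate 1 (0.0757) or 2 (0.136).

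Fosl2, which encodes the FOS-related protein FRA2, was not measurable here. Its single probe set, 103546_at, ran from -35.5 to 67.1 in cultured and from -8.3 to 25.4 in fresh arrays, below the floor on every array, and gave no comparison.

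**Figure D1:**
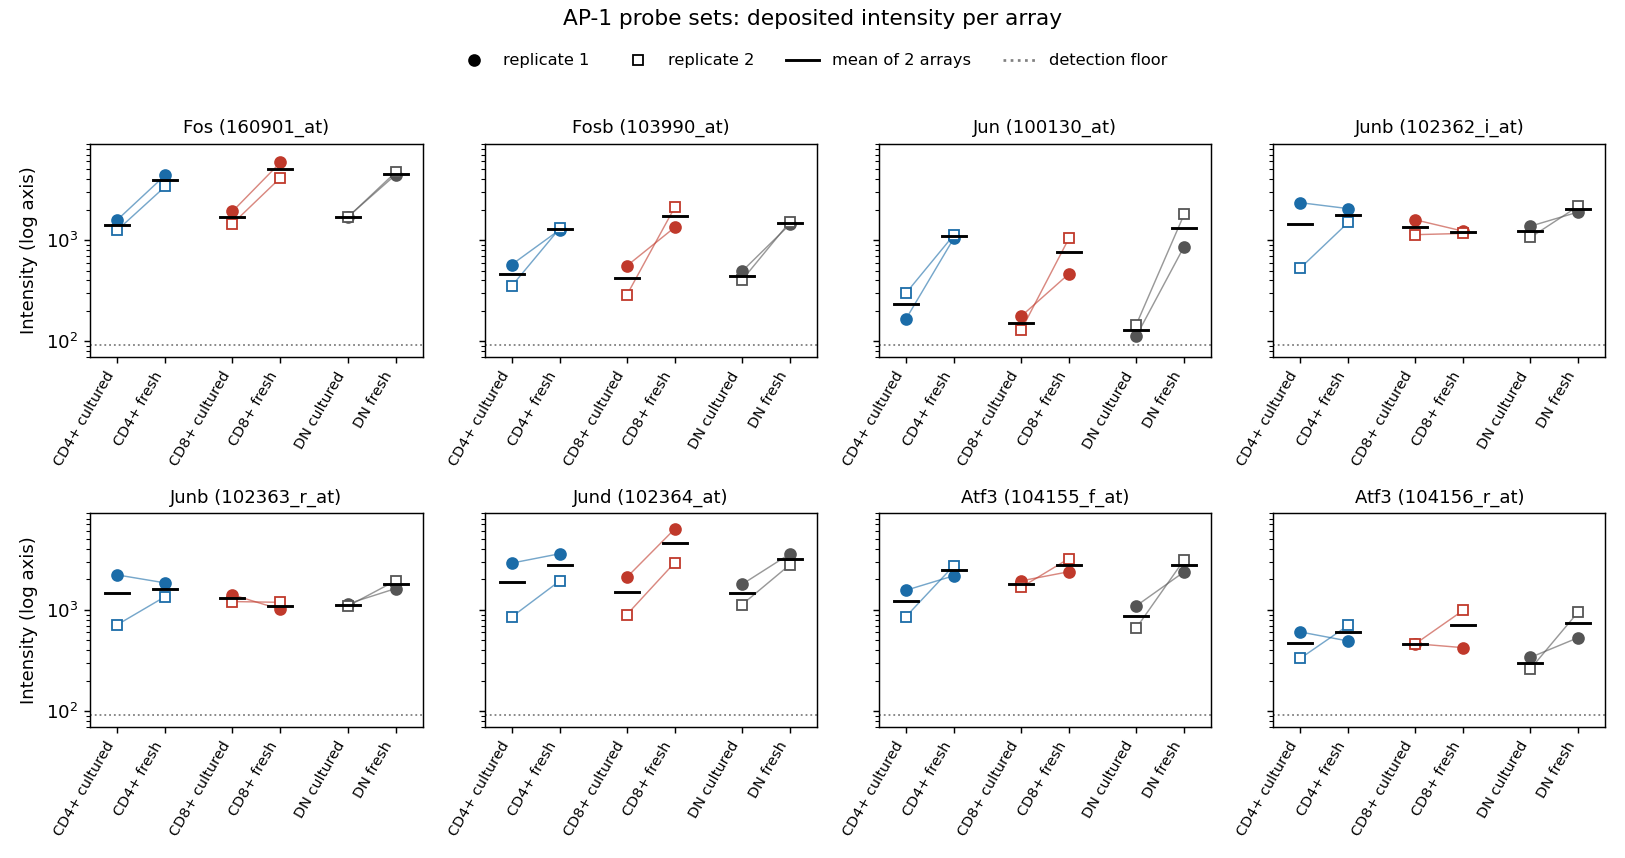
Deposited intensity (log axis) of the 8 tested AP-1 probe sets on each array, with cultured cells left of fresh cells in each subset. Filled circles are replicate 1, open squares replicate 2, thin lines join arrays of the same number, black bars are means of 2 arrays and the dotted line is the floor of 91.4. Fos, Fosb, Jun and the Atf3 probe set 104155_f_at had every cultured array below every fresh array, while cultured and fresh arrays of Junb overlapped.

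Jun (100130_at), which encodes c-Jun, the JUN protein with the strongest transactivating function, had the largest log2 difference among the 8 AP-1 probe sets in the mean and in each subset. It stood at 166 and 299 in cultured CD4+, 176.5 and 128 in cultured CD8+ and 112 and 145 in cultured DN cells, against 1047 and 1130 in fresh CD4+, 465 and 1047 in fresh CD8+ and 864.5 and 1798 in fresh DN cells. The cultured arrays were close to the floor, and none overlapped a fresh array. Within experiments, the cultured value was 8.06% to 37.9% of the fresh value. The mean culture effect was -2.57 ± 0.27 (limma, adjusted p = 4.69e-05), a 5.92-fold lower level, and 1.51% of all tested probe sets had a more negative difference. Jun fell by -2.27 ± 0.46 in CD4+ cells (adjusted p = 0.00802), -2.18 ± 0.46 in CD8+ cells (adjusted p = 0.0166) and -3.25 ± 0.46 in DN cells (adjusted p = 0.00198). The low fresh CD8+ value was on replicate 1, the array with the Gapdh ratio of 2.55, and without that array the log2 difference in CD8+ cells was -2.77 (adjusted p = 0.0158). Among limma fits without 1 array, the DN call was kept in all 12, leaving out either fresh CD4+ array ended the CD4+ call (adjusted p = 0.0503 for replicate 1 and 0.0655 for 2), and the CD8+ call was lost without cultured CD8+ replicate 1 (0.0773) or 2 (0.109) or fresh CD8+ replicate 2 (0.092).

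Junb, which encodes a JUN protein of weaker transactivation that can hold back c-Jun, was represented by a pair of probe sets, 102362_i_at and 102363_r_at. The suffixes mark probe sets with fewer unique probes than the design asked for or with relaxed selection rules. The first gave 2348 and 529.5 in cultured CD4+, 1589 and 1133 in cultured CD8+ and 1375 and 1064 in cultured DN cells, against 2051 and 1497 in fresh CD4+, 1226 and 1166 in fresh CD8+ and 1901 and 2174 in fresh DN cells. For this probe set, cultured and fresh arrays overlapped in CD4+ and CD8+ cells. In DN cells both cultured arrays lay below both fresh arrays, as for 31.7% of all tested probe sets. The second probe set also overlapped in CD4+ cells and was lower in both cultured DN arrays. In CD8+ cells its cultured arrays (1411 and 1208) lay above its fresh arrays (1011 and 1188). The mean culture effect was -0.41 ± 0.31 for the first (limma, adjusted p = 0.298) and -0.25 ± 0.25 for the second (adjusted p = 0.437), and neither was called. In CD8+ cells the log2 differences were 0.17 ± 0.53 and 0.25 ± 0.43, and in DN cells -0.75 ± 0.53 and -0.67 ± 0.43, all not called (adjusted p = 0.343 to 0.883).

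Junb had its widest spread between replicates in cultured CD4+ cells, of which replicate 1 was the array of highest noise. Without it, both Junb probe sets were lower in the mean culture effect (log2 -0.77, adjusted p = 0.0051, and -0.52, adjusted p = 0.023, limma) and in CD4+ cells (-1.72, adjusted p = 0.0104, and -1.15, adjusted p = 0.0373). Without replicate 2 of the same group, the CD4+ differences were 0.42 (adjusted p = 0.328) and 0.49 (0.223). Replicate 1 also had the highest cultured marker sums for T cells (275), B cells (1684), neutrophils (1402) and red cells (2512). On replicate 2 these were 129, 910, 438.5 and 165. Replicate 1 was likewise highest in plasmacytoid, stromal and dendritic cell sums (852, 196 and 94530). It was lowest in the macrophage or monocyte sum (1980) and not highest for NK cells or platelets. The part of these sums in the Junb values was not tested. Which of the 2 arrays stands closer to these cells cannot be told from the data.

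Jund (102364_at), the JUN protein that is present in most resting cells and the least tied to the immediate-early response, had 2903 and 850.3 in cultured CD4+, 2098.5 and 896 in cultured CD8+ and 1784 and 1123 in cultured DN cells, against 3591 and 1932 in fresh CD4+, 6314 and 2933 in fresh CD8+ and 3578 and 2796 in fresh DN cells. Cultured and fresh arrays overlapped in CD4+ cells and not in CD8+ or DN cells, and the cultured array was below the fresh one of its number in 6 of 6 pairs, as for 21.4% of all tested probe sets. In all 6 groups replicate 1 was higher than replicate 2. The mean culture effect was -1.18 ± 0.35 (limma, adjusted p = 0.0214), and Jund was lower by -1.65 ± 0.61 in CD8+ cells (adjusted p = 0.127), -1.16 ± 0.61 in DN cells (adjusted p = 0.252) and -0.75 ± 0.61 in CD4+ cells (adjusted p = 0.39), none of which passed. With the experiment number as a block, the CD8+ (adjusted p = 0.00861) and DN (0.0321) differences passed and the CD4+ one did not (0.0964). The call in the mean was lost without cultured CD8+ replicate 2 (limma, adjusted p = 0.0642), cultured DN replicate 2 (0.0565), fresh CD4+ replicate 1 (0.0568), fresh CD8+ replicate 1 (0.0515) or fresh DN replicate 1 (0.0538).

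Atf3, which encodes a stress-induced ATF protein that represses many inflammatory genes as a homodimer, had 3 probe sets. Probe set 104155_f_at, whose suffix marks a family that related sequences can share, gave 1563 and 859 in cultured CD4+, 1936 and 1669 in cultured CD8+ and 1094 and 659 in cultured DN cells, against 2179 and 2746.5 in fresh CD4+, 2386 and 3221 in fresh CD8+ and 2376 and 3123 in fresh DN cells. No cultured array reached the lowest fresh one. It fell in the mean culture effect by -1.13 ± 0.20 (limma, adjusted p = 0.00153) and in DN cells by -1.68 ± 0.35 (adjusted p = 0.014), a call lost without cultured DN replicate 2 (0.0859) or fresh DN replicate 1 (0.0543) or 2 (0.153). In CD4+ cells the difference was -1.08 ± 0.35 (limma, adjusted p = 0.0544, and 0.0438 with the experiment number as a block). It passed there also under quantile normalization (0.0276), without cultured CD4+ replicate 1 (0.0285) and when the 3 arrays with a high Gapdh ratio were left out (0.00405). In CD8+ cells it was -0.62 ± 0.35 (adjusted p = 0.322).

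The second Atf3 probe set, 104156_r_at, was dimmer, at 605 and 331 in cultured CD4+, 463 and 462 in cultured CD8+ and 339 and 261 in cultured DN cells, against 492 and 703 in fresh CD4+, 423 and 992 in fresh CD8+ and 532 and 960 in fresh DN cells. Only in DN cells did its cultured arrays lie below the fresh ones. Its mean culture effect of -0.71 ± 0.26 missed the threshold (limma, adjusted p = 0.0507, and 0.042 with the experiment number as a block) and passed without cultured CD4+ replicate 1 (0.0261), fresh CD8+ replicate 1 (0.0133) or fresh DN replicate 1 (0.0391). It also passed at 2 times the offset (0.0481), with the filter of 6 arrays (0.0493), after quantile normalization (0.0448) and when the arrays with a high Gapdh ratio were left out (0.00198). The third, 161645_r_at, was below 0 on all 12 arrays (-119.5 to -56.8). The 2 tested Atf3 probe sets had the same sign in each subset, and the log2 differences of the second were nearer to 0.

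Maff (100302_at), a small MAF protein without a transactivation domain that pairs with FOS and NRF proteins, was mostly well below the floor. It ran from 2.2 to 92.8 in cultured and from 0.5 to 37.3 in fresh arrays, and only replicate 2 of cultured CD8+ cells exceeded the floor, so it was not tested.

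**Figure D2:**
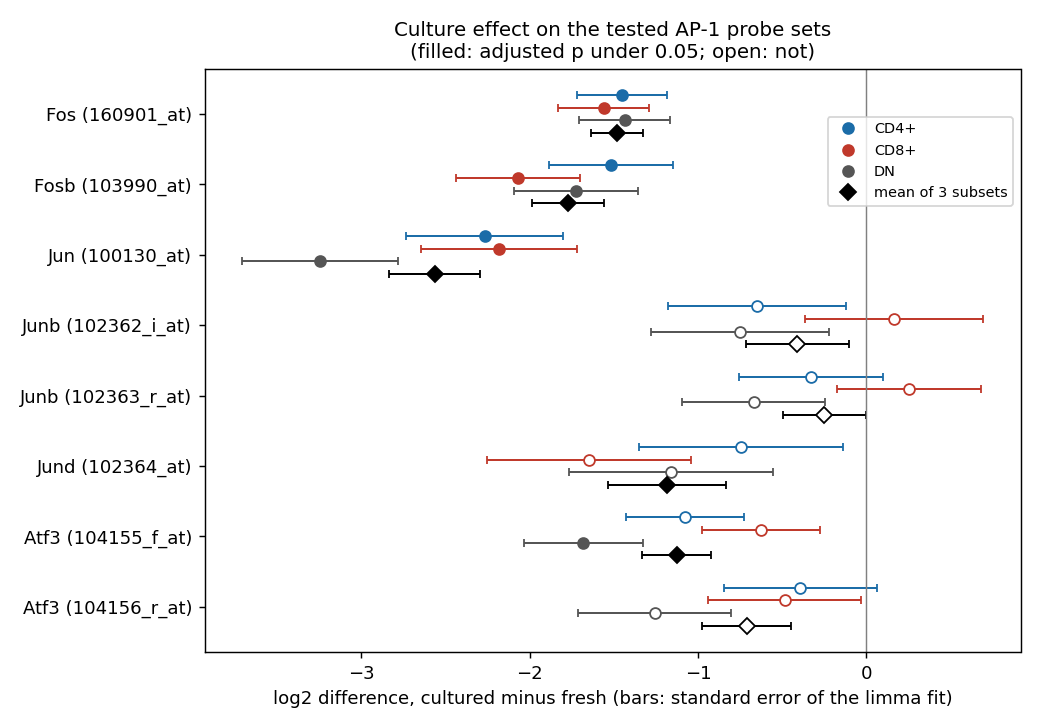
Log2 difference of cultured minus fresh cells for the 8 tested AP-1 probe sets, in CD4+ (blue), CD8+ (red) and DN cells (gray) and as the mean of the 3 subsets (black diamonds), with standard errors of the limma fit. Filled symbols have an adjusted p under 0.05: Fos, Fosb and Jun are filled in every subset, Atf3 104155_f_at in DN cells and the mean, Jund in the mean, and Junb nowhere.

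By subset, the AP-1 probe sets called lower were 3 of 8 in CD4+ cells (Fos, Fosb and Jun), where 10.9% of all tested probe sets were lower. The same 3 were called in CD8+ cells (4.12% of all), and these 3 with Atf3 104155_f_at, 4 of 8, in DN cells (5.70%). None of the 8 was called higher in any subset, where 7.53%, 4.01% and 4.21% of all tested probe sets were. Both cultured arrays lay below both fresh arrays for 4 of 8 in CD4+ cells (34.0% of all), 5 of 8 in CD8+ cells (29.4%) and 8 of 8 in DN cells (31.7%). The median log2 difference of the 8 was -0.91 in CD4+, -1.09 in CD8+ and -1.35 in DN cells, against -0.02, -0.04 and 0.02 over all tested probe sets. Without fresh CD4+ replicate 1 the count in CD4+ cells was 0, without fresh CD4+ replicate 2 it was 1, and without cultured CD4+ replicate 1 it was 6. The count in CD8+ cells was 0 without cultured CD8+ replicate 2, and in DN cells it was 2 without either cultured DN array and 1 without either fresh DN array.

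Whether the culture effect itself differed between subsets was tested with interaction terms, and limma called 0 of the 8 AP-1 probe sets in each of the 3 comparisons. At an unadjusted p under 0.05 there were also 0 of 8 in each. The log2 differences in culture effect ran from -0.90 to 0.82 for CD8+ against CD4+ cells (adjusted p = 0.759 to 0.973), from -0.49 to 1.06 for CD8+ against DN cells (adjusted p = 0.998) and from -0.98 to 0.01 for DN against CD4+ cells (adjusted p = 0.999 to 1). Over all tested probe sets 0 were called in any of the 3 (0.0%), with 525, 250 and 127 at an unadjusted p under 0.05. For Fos the differences were small beside their error, at -0.11 ± 0.38, -0.12 ± 0.38 and 0.01 ± 0.38. For Jun the fall was larger in DN than in CD8+ cells by 1.06 ± 0.66, which did not pass.

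No AP-1 probe set passed a test between the sorted subsets in either state. In fresh cells, limma called 0 of 8 AP-1 probe sets between CD8+ and CD4+ (1.98% of all tested), between CD8+ and DN (1.43%) and between DN and CD4+ cells (0.0%), and 0 of 8 had an unadjusted p under 0.05 in each. Over all probe sets, DN against CD4+ cells had 81 at an unadjusted p under 0.05. Mean fresh Fos was 5008 ± 1225 in CD8+, 4561 ± 186 in DN and 3906 ± 706 in CD4+ cells (SD, n = 2), in this order, and neither neighbouring pair passed the test (limma, adjusted p = 0.997 and 1). Mean fresh Jun was 1331 ± 660.2 in DN, 1088.5 ± 58.4 in CD4+ and 756 ± 411 in CD8+ cells, and mean fresh Jund was 4624 ± 2391 in CD8+, 3187 ± 553 in DN and 2762 ± 1174 in CD4+ cells. The Jund arrays of neighbouring groups overlapped. Those of Jun overlapped between DN and CD4+ cells and were apart only narrowly between CD4+ and CD8+ cells. For Junb, both fresh CD8+ arrays lay below all fresh CD4+ and DN arrays on both probe sets. They were 1226 and 1166 against 1497 to 2174 for 102362_i_at, and 1011 and 1188 against 1356 to 1941 for 102363_r_at. None of these Junb differences was called (limma, adjusted p = 0.715 to 0.888). For Fosb, both fresh CD4+ arrays (1266 and 1305) lay below all other fresh arrays, also not called. How many of all tested probe sets show such patterns was not counted.

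In cultured cells, 0 of 8 were called between CD8+ and CD4+ (2.29% of all), between CD8+ and DN (1.30%) and between DN and CD4+ cells (0.0%, with 235 of all probe sets at an unadjusted p under 0.05). At an unadjusted p under 0.05 there were 0, 1 and 0 of the 8. Atf3 104155_f_at averaged 1803 ± 189 in cultured CD8+ and 876 ± 307 in cultured DN cells, a log2 difference of 1.08 ± 0.35 (limma, adjusted p = 0.236), and passed without the 3 arrays of high Gapdh ratio (0.0182). Junb 102362_i_at averaged 1361 ± 322 in cultured CD8+ and 1439 ± 1286 in cultured CD4+ cells, with a log2 difference of 0.27 ± 0.53 (adjusted p = 0.84), which passed without the same 3 arrays (1.34, adjusted p = 0.0282) and turned to -0.81 without cultured CD4+ replicate 2 (0.147). Mean cultured Jun was 233 ± 94.1 in CD4+, 152 ± 34.2 in CD8+ and 128 ± 23.5 in DN cells, each pair of neighbours overlapping.

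**Figure D3:**
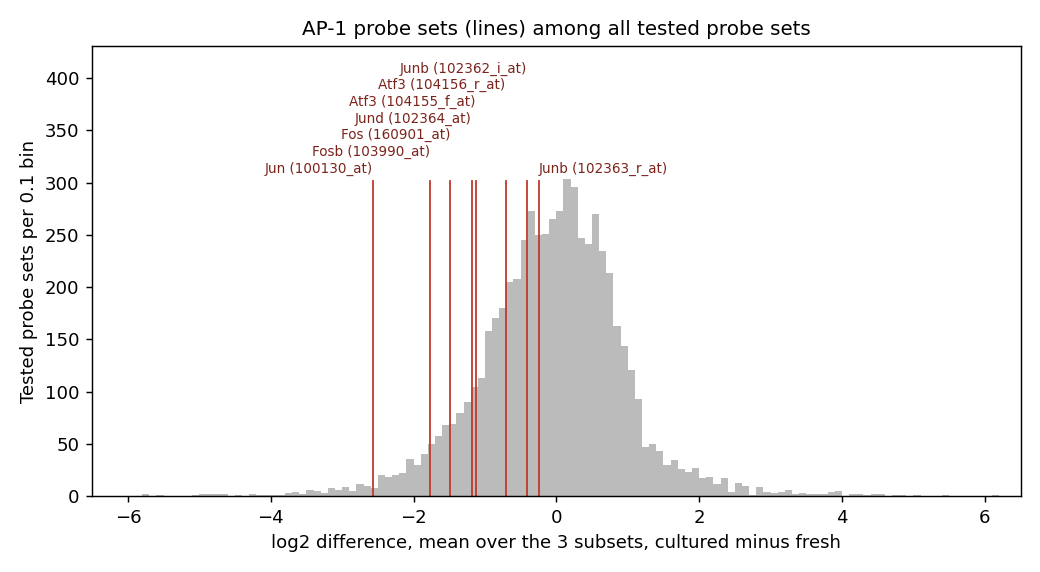
Mean culture effect (log2 difference, cultured minus fresh, averaged over the 3 subsets) of all 6159 tested probe sets as a histogram, with the 8 AP-1 probe sets as red lines. All 8 lie left of 0, from Jun at -2.57 to Junb 102363_r_at at -0.25, and 1.51% of the probe sets lie further left than Jun.

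Genes that work with or around these factors did not share one direction. Of 29 other basic leucine zipper genes in the AP-1, ATF, MAF, NRF, BACH and C/EBP families, 23 were on the array and 18 were tested, and 7 rose and 2 fell in the mean culture effect (17.0% and 22.3% of all tested probe sets; median log2 0.50). Crem, a CREB-family gene whose ICER form represses cyclic AMP-driven transcription, was at 246 to 595 (median 515.5) in cultured arrays. In fresh arrays it was at 33.0 to 87.7, all below the floor. Its average cultured level on the generalised log2 scale was 4.86-fold above the floor, a bound for the average and not for each array. The fitted log2 difference, which uses the values below the floor, was 2.965 ± 0.24 (limma, adjusted p = 8.84e-06). Nfe2l2, which encodes the oxidative stress factor NRF2, rose by 2.40 ± 0.20 (748 to 1727 in cultured and 147 to 239 in fresh arrays, adjusted p = 1.08e-05). Batf3, a JUN partner needed for CD8+ dendritic cell development, fell by -1.92 ± 0.20 (281 to 692 in cultured and 1331 to 1762 in fresh arrays, adjusted p = 4.96e-05).

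Of 27 kinases and serum response or MEF2 factors that act upstream of AP-1, 21 were on the array and 17 tested, and 4 rose and 3 fell in the mean culture effect, close to the 17.0% higher and 22.3% lower of all tested probe sets (median log2 0.09). Map2k3, a kinase that activates p38, rose by 2.49 ± 0.15 (1617 to 2253 in cultured and 280.5 to 488 in fresh arrays, limma, adjusted p = 1.24e-06). Mapk14, which encodes p38 alpha itself, fell by -2.57 ± 0.18 (245 to 462 in cultured and 1417 to 2652 in fresh arrays, adjusted p = 2.98e-06). Map2k6, the other main p38 activator, was never above the floor in cultured arrays and above it on only 2 of 6 fresh arrays, so no minimum fold is given. Its fitted log2 difference was -1.86 ± 0.31 (limma, adjusted p = 0.00102). That value rests mostly on intensities below the floor, and it ran from -2.56 to -0.32 over the alternatives.

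Of 28 textbook AP-1 targets, 27 were on the array and 18 tested. In the mean culture effect 10 rose and 3 fell (17.0% and 22.3% of all tested probe sets, median log2 1.08), while Fos, Fosb and Jun fell. The counts of calls differed by subset, but the medians were close and no tested probe set passed an interaction test between subsets. In CD4+ cells 5 rose and 3 fell (7.53% and 10.9% of all, median 1.025). In CD8+ cells 7 rose and 0 fell (4.01% and 4.12%, median 1.117). In DN cells 2 rose and 2 fell (4.21% and 5.70%, median 1.008). Sqstm1, the autophagy receptor p62, rose by 3.63 ± 0.13 (5620 to 10864 in cultured and 453 to 927 in fresh arrays, limma, adjusted p = 3.61e-08). Gadd45b, a growth arrest and stress gene, rose by 2.88 ± 0.22 (4992 to 10205 in cultured and 519.5 to 1333 in fresh arrays, adjusted p = 6.72e-06). Mmp9, a matrix metalloprotease, was never above the floor in cultured arrays and above it on 4 of 6 fresh arrays. Its fitted log2 difference was -2.92 ± 0.37 (limma, adjusted p = 0.000166). That value rests largely on intensities below the floor, and it ran from -3.92 to -1.19 over the alternatives. Many of these targets also answer to NF-kB or NRF2, so the list is not specific to AP-1.

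Across the 12 arrays, the profiles of Fos and Fosb were close (Pearson r = 0.936 on the log2 scale), Jun followed Fosb (0.883) and Fos (0.836), and Junb was the furthest from all of these (0.311 with Jun, 0.443 with Fos and 0.463 with Fosb). Jund correlated with Fos at 0.832 and with Jun at 0.526. Atf3 104155_f_at correlated with Fosb at 0.83. The arrays share their state, so these values describe 12 points in 2 states and carry no test. Among 4781 named probe sets, those most like Fos were Ctage5 (0.963), Sgpp1 (0.963) and Unc119 (0.962). Those most like Fosb were Unc119 (0.982), Fcho1 (0.953) and Colgalt1 (0.951), and those most like Jun were Kmt5c (0.962), Exosc5 (0.961) and Zfp36l2 (0.959). For Junb they were Tspan9 (0.922), Atf6b (0.902) and Gpn2 (0.893), for Jund they were Pdk1 (0.943), Eif4g3 (0.892) and Slc25a17 (0.882), and for Atf3 they were Batf3 (0.921), Pex7 (0.912) and Mrps34 (0.911). Of these, Sgpp1, Unc119, Fcho1, Kmt5c, Zfp36l2, Pdk1, Eif4g3 and Pex7 had a cultured mean below the floor of 91.4, so the cultured side of their profiles is mostly background.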

How the data were processed

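Per the labels, each of the 12 arrays carries a deposited intensity per probe set, an Average Difference (perfect match minus mismatch), which the authors scaled globally and which can lie below 0. The software behind it is not given in the sources used here. All 12422 probe sets that are not controls were put on a generalised log2 scale with an offset of 45.7, the noise of the arrays' own negative values, and 6159 above 91.4 on at least 2 arrays were tested. limma 3.58.1 (R 4.3.3) fitted 1 mean per group over all arrays, with trended, robust moderation and Benjamini-Hochberg adjustment over the 6159. The fit was also run on simulated data with independent noise and 1 spread per probe set. That run did not model the unequal noise of the arrays or any link between them. Of the probe sets, 10833 had 1 symbol, 396 several and 1193 none. Group and replicate came from the labels, where the replicate is the experiment number. Deviations of same-numbered arrays from their group means correlated at 0.107 to 0.444 in all 15 pairs of groups. The numbers were therefore taken to pair the arrays in comparisons within an experiment and in the replicate block. The main fit left this pairing out, so its p-values are unpaired. Replicate 1 was the noisier array in each group, and whether this gave the correlations was not tested. The members, gene lists and markers were chosen with earlier results of these data known. The text names every member and, of 3 other lists, the 3 genes of lowest p in the mean culture effect. Alternatives were the offset, floor, filter, quantile normalization, replicate block, fitted groups, moderation, array weights and left-out arrays. With 2 arrays per group, their number limits the precision.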

Additional observations from a re-analysis of the deposited data

How the results depend on the processing

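Over the alternatives tried, the mean culture effect of Fos, Fosb, Jun and Atf3 104155_f_at kept its sign and its call in all 22. With only the groups compared fitted, which was not run for the mean effect, 1 AP-1 probe set was called in CD4+, 3 in CD8+ and 6 in DN cells. With the 3 arrays of a high Gapdh ratio left out, 6 AP-1 probe sets were called in CD4+ cells, 8 in the mean effect, and 1 each between cultured CD8+ and cultured CD4+ and between cultured CD8+ and cultured DN cells. Leaving out 1 array at a time gave 0 to 6 calls in CD4+, 0 to 3 in CD8+ and 1 to 4 in DN cells, 4 to 8 in the mean effect (8 without cultured CD4+ replicate 1) and 0 in every other comparison. Leaving out cultured CD4+ replicate 2 turned signs and leaving out replicate 1 did not. In CD4+ cells log2 differences ran from -1.72 to 0.42 for Junb 102362_i_at, -1.15 to 0.49 for Junb 102363_r_at, -1.63 to 0.14 for Jund and -0.82 to 0.0401 for Atf3 104156_r_at, each without replicate 1 and without replicate 2 in that order. In the same order Junb 102363_r_at ran from -0.52 to 0.0225 in the mean effect, and Junb 102362_i_at from 1.34 to -0.81 between cultured CD8+ and cultured CD4+ cells. In CD8+ cells, Junb 102362_i_at was -0.078 without cultured replicate 1 and 0.41 without cultured replicate 2, and Atf3 104156_r_at was -1.10 without fresh replicate 1 and 0.13 without fresh replicate 2. The cause was not tested. The replicate block changed the calls of Jund in CD8+ (adjusted p = 0.00861, limma) and DN cells (0.0321), Atf3 104155_f_at in CD4+ cells (0.0438) and Atf3 104156_r_at in the mean (0.042), and no other AP-1 call. Atf3 104156_r_at in DN cells passed with only the groups compared (0.0191), array weights (0.0383) and with the arrays of a high Gapdh ratio left out (0.0284). Over all tested probe sets, calls ranged from 254 to 2115 in CD4+, 130 to 991 in CD8+ and 90 to 1178 in DN cells, against 1133, 501 and 610 as reported, and from 1699 to 3131 in the mean effect, against 2420. Between fresh subsets they ranged from 26 to 206 (CD8+ against CD4+), 8 to 155 (CD8+ against DN) and 0 to 15 (DN against CD4+), and between cultured subsets from 20 to 551, 5 to 210 and 0 to 199. For the interactions the ranges were 0 to 162, 0 to 3 and 0 to 72. Map2k6 and Mmp9 were not tested under the filter of 6 arrays. Fosl2, Maff and the dim Fos and Atf3 probe sets lay at or under the floor, where differences were not detectable.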
